A study of Mus musculus with 12 samples.

Results

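The liver X receptors are nuclear receptors that sense oxidised cholesterol and turn on genes for moving cholesterol out of the cell and for making fatty acids. The genes described here are 10 of the 55401 genes in the deposited tables, chosen by symbol: both receptors (Nr1h2 and Nr1h3), 3 genes of lipid efflux (Abca1, Abcg1 and Apoe), Mylip, Srebf1, the stearoyl-CoA desaturases Scd1 and Scd2, and Lpcat3. Against dendritic cells (DCs) of the duodenum, libraries of sorted liver DCs held more Abcg1, Mylip and Apoe RNA. Those of pancreas DCs held more Abcg1, Mylip and Scd1 and less Scd2 and Srebf1. The Srebf1 call was lost in 12 of 24 alternative analyses, and those of Scd1 and Scd2 in 1 each. Liver libraries also held hepatocyte and macrophage RNA, whose part in the Apoe difference was not tested. Neither receptor gene passed the test in any comparison.

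Bulk sequencing of polyA RNA was done on migratory DCs taken from the liver, duodenum and pancreas of B6 mice aged 6 to 8 weeks. Each tissue had 4 libraries, numbered 1 to 4 as in the labels, and each library pooled 2 mice, so 1 value stands for a pool and not for an animal. All 3 groups shared strain, age and sort gate, and the labels name no treatment or altered gene: the gate kept live CD45+ cells that lacked lineage markers and CD11b and bore CD11c, CD103 and much MHC class II. The comparisons ask how these lipid genes differ among sorted DCs of organs that the study's title links through shared lymph nodes. Totals ran from 220897606 to 356072585 estimated counts a library. Defining transcripts of CD103+ conventional DCs were present in every library, with Xcr1 between 330.3 and 684.9 CPM, Clec9a between 210.3 and 410.6 CPM and Irf8 between 1149 and 1711 CPM. Duodenum library 2 had the highest total, the lowest Xcr1 and Clec9a, and the lowest sum of 11 such genes (17027 CPM, with 18645 or more elsewhere). Among duodenum libraries it was also lowest for Nr1h2, Abcg1, Apoe, Srebf1, Mylip, Scd2 and Lpcat3. CPM here is the estimated count as a rate over the scaled library total, and is used to compare 1 gene among libraries. TPM, the deposited unit that also divides by transcript length, is used to compare genes with each other.

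LXRα, encoded by Nr1h3, and LXRβ, encoded by Nr1h2, bind DNA as partners of the retinoid X receptors. Without ligand they hold corepressors on their targets, and with oxysterols or other sterol ligands they exchange these for coactivators. In macrophages their best known targets are the cholesterol exporters Abca1 and Abcg1 and the lipoprotein Apoe, and in DCs cholesterol efflux is known to bear on inflammatory activity.

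LXR and its partner bind a pair of 6-base half-sites separated by 4 bases. Promoter windows of 300 bases (250 before and 50 after the annotated start, RefSeq, GRCm38.p6) were at hand for 7 of the 10 genes, 12 windows in all. The element pairing GGGTTA with CGGTCA across 4 bases was chosen for a search after these windows had been read, and is given as a description of letters only. On either strand it stood in 3 of 32851 windows (0.00913%): that of Abca1, 1 of the 3 windows of Srebf1, and that of Fasn, the fatty acid synthase gene, which belongs to the wider list of LXR targets used below. The 3 stretches are shown because they share this pair of half-sites, here in capitals with the 4 bases between them, and the RNA of all 3 genes is given below. They lie at chr4:53159907-53160002 (Abca1), chr11:60210598-60210693 (Srebf1) and chr11:120824717-120824797 (Fasn), all on the minus strand, and are printed 5′ to 3′ along the gene, so that the capitals read as the reverse complement of the pair.
Abca1: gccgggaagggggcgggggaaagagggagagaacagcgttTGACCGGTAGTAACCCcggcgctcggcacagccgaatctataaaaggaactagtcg
Srebf1: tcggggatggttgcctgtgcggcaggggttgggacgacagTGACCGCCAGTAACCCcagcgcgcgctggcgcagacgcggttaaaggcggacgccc
Fasn: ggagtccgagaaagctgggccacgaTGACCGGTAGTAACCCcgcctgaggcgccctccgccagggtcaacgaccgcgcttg
Counted upstream from the start, the capitals cover bases 52 to 67 in Abca1, 167 to 182 in Srebf1 and 210 to 225 in Fasn. Abca1 and Fasn carry the same 16 letters, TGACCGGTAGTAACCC, and Srebf1 has TGACCGCCAGTAACCC. A broader search on both strands, for 2 half-sites in the same direction with 4 bases between, each AGGTCA or GGGTCA or AGTTCA or GGTTCA, met 27 of 32851 windows (0.0822%) and none of the 12 windows of these genes. The sterol element TCACCCCAC, a binding motif of the SREBP proteins, was in 181 windows (0.551%) and again in none of the 12.

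**Figure D1:**
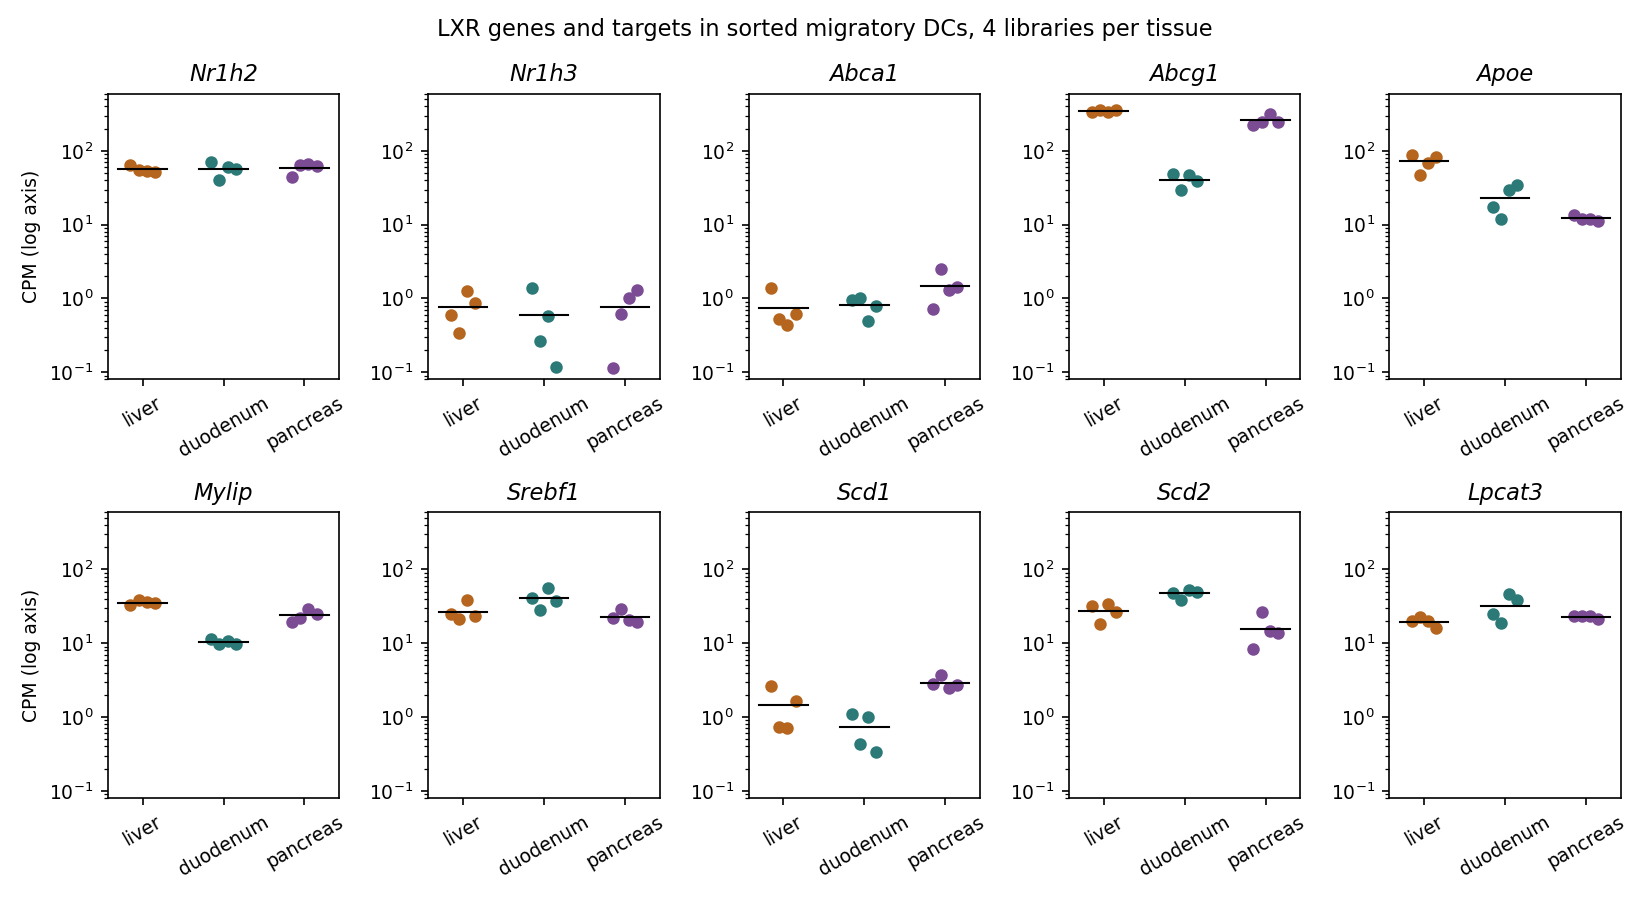
CPM on a log axis for each gene in liver, duodenum and pancreas DCs. Each point is 1 library and each bar the mean of 4. Abcg1 and Mylip separate the duodenum from the other tissues without overlap, Apoe separates the liver, and Nr1h2 is level near 57.1 CPM in the duodenum, 56.0 in the liver and 59.2 in the pancreas.

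Of the receptors, LXRβ was the one with abundant RNA. Nr1h2 (ENSMUSG00000060601) measured 64.3, 55.5, 53.0 and 51.3 CPM in liver libraries 1 to 4. The duodenum gave 70.7, 40.0, 61.3 and 56.4 CPM and the pancreas 44.2, 64.1, 65.5 and 63.0 CPM. The 3 ranges overlapped, with the low values in duodenum library 2 and pancreas library 1. The largest of the 3 log2 differences in size was -0.08 ± 0.18 (SE), liver against pancreas (edgeR quasi-likelihood test, Benjamini-Hochberg adjusted p = 0.98). Liver against duodenum was -0.03 ± 0.18 and pancreas against duodenum 0.05 ± 0.18 on the log2 scale.

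Nr1h3 (ENSMUSG00000002108), the receptor that macrophages and liver cells are known to express strongly, was near 1 CPM or below. Its liver values were 0.598, 0.345, 1.25 and 0.882 CPM, its duodenum values 1.38, 0.268, 0.586 and 0.119 CPM and its pancreas values 0.114, 0.612, 1.02 and 1.30 CPM. Libraries of 1 tissue differed by as much as tissues did, and the SE of each log2 difference was 0.71 or 0.72. Tissue differences well above that size could therefore go undetected at this level. In TPM, Nr1h2 exceeded Nr1h3 in all 12 libraries, by 32.5 to 358 times, and that ratio did not pass the test between any pair of tissues (exact permutation tests, two-sided, p = 0.429 to 0.657, adjusted p = 0.551 to 0.657 over 9 ratio comparisons). Nr1h3 overlaps Acp2 in the RefSeq annotation, and without a stated strand setting reads from overlapping genes cannot be told apart.

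Abcg1 held the largest differences from the duodenum among the 10 genes, and its partner in efflux, Abca1, held none that passed. ABCG1 moves cholesterol and oxysterols onto high-density lipoprotein, and ABCA1 loads lipid-poor apolipoprotein A-I. Abcg1 (ENSMUSG00000024030) measured 334, 355, 341 and 360 CPM in the liver libraries. Pancreas libraries had 223, 250, 319 and 245 CPM, and duodenum libraries 48.2, 29.7, 47.2 and 38.7 CPM. Every liver and pancreas library was above every duodenum library, and the lowest liver library was above the highest pancreas library. Abcg1 was 8.49-fold higher in the liver than in the duodenum (log2 difference 3.09 ± 0.17, edgeR with Benjamini-Hochberg adjustment, adjusted p = 1.26e-07) and 6.32-fold higher in the pancreas than in the duodenum (2.66 ± 0.16, adjusted p = 2.46e-07). Between liver and pancreas it did not pass (0.42 ± 0.15, edgeR adjusted p = 0.342), and it did pass there with scaling by library totals (0.51, adjusted p = 0.0186) or with limma on log2(TPM + 1) (0.52, adjusted p = 0.0393). Both calls against the duodenum stood in all 24 alternative analyses.

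Abca1 (ENSMUSG00000015243) was the lowest of the 10 in mean TPM in each tissue, at 0.111 in the liver, 0.109 in the duodenum and 0.206 in the pancreas. Its CPM values were 1.38, 0.525, 0.441 and 0.612 in the liver, 0.966, 1.02, 0.489 and 0.780 in the duodenum and 0.729, 2.49, 1.32 and 1.45 in the pancreas. The ranges overlapped in each pair of tissues and no difference passed, the widest being -1.02 ± 0.42 in log2 for liver against pancreas (edgeR adjusted p = 0.437). Abcg1 therefore stood above Abca1 in TPM by 322 to 1025 times in liver libraries, 133 to 405 times in pancreas libraries and 38.7 to 127 times in duodenum libraries. The Abca1 to Abcg1 ratio was 10.2-fold lower in the liver than in the duodenum (log2 difference -3.35, n = 4 against 4, exact permutation test, two-sided, p = 0.0286, adjusted p = 0.0643 over 9). In the pancreas it was 3.67-fold lower than in the duodenum (log2 difference -1.87, exact p = 0.0286, adjusted p = 0.0643). A p of 0.0286 is the smallest that 4 against 4 libraries can give, and 4 of the 9 ratio comparisons reached it. None passed 0.05 after adjustment, although the libraries did not overlap in either of these comparisons. With a pseudocount of 1 added to TPM, 6 of the 9 passed (exact permutation test, adjusted p = 0.0429 each). For comparisons at the smallest p, the adjusted p is set by how many of the 9 reach it. Abca1 and Scd1 lie below that pseudocount in every library, so the changed ratios mainly follow Abcg1 and Scd2 and add no separate result.

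**Figure D2:**
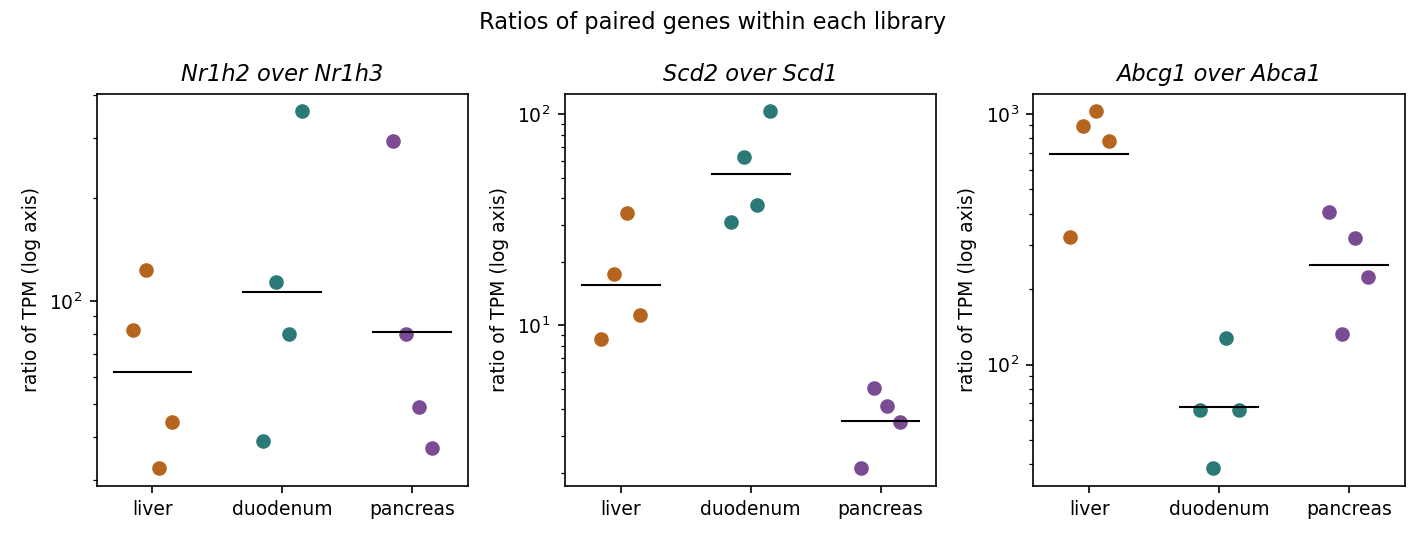
Ratio of TPM between paired genes within each library, on log axes, by tissue. Each point is a library and each bar the geometric mean of 4. Scd2 over Scd1 is 2.12 to 5.05 in the pancreas and 30.8 to 103 in the duodenum, and Abcg1 over Abca1 is 322 to 1025 in the liver and 38.7 to 127 in the duodenum.

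ApoE is a lipoprotein that accepts exported cholesterol and is made by hepatocytes and by macrophages. Apoe (ENSMUSG00000002985) measured 89.0, 46.4, 68.6 and 83.9 CPM in liver libraries 1 to 4, against 17.1, 11.9, 29.7 and 34.7 CPM in the duodenum. Pancreas libraries were closely grouped at 13.7, 12.1, 12.1 and 11.2 CPM. All 4 liver libraries were above all 8 others, and duodenum libraries 1, 3 and 4 were above the pancreas while library 2 was within its range. Apoe was 3.08-fold higher in the liver than in the duodenum (log2 difference 1.63 ± 0.29, edgeR adjusted p = 0.003) and 5.86-fold higher than in the pancreas (2.55 ± 0.30, edgeR adjusted p = 0.000333), and both calls stood in all 24 alternatives. Pancreas against duodenum did not pass (-0.93 ± 0.29, edgeR adjusted p = 0.0678). Without duodenum library 2 it did, at -1.20 (adjusted p = 0.00521).

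Markers of other cells known to make ApoE also differed among the tissues. The 12 hepatocyte genes summed to 30.6 to 50.1 CPM in liver libraries, 1.85 to 4.09 CPM in the duodenum and 1.96 to 3.41 CPM in the pancreas. In the liver, 8 of the 12 were called higher than in the duodenum, beside 3.37% of all genes. Albumin RNA (Alb), the most abundant of them, was 14.6, 8.74, 10.1 and 10.7 CPM in liver libraries 1 to 4, below Apoe in each of the 4. The 15 genes of macrophages and Kupffer cells, the resident macrophages of the liver, summed to 397 to 521 CPM in the liver, 253 to 367 CPM in the duodenum and 832 to 1004 CPM in the pancreas, and Lyz2 made up most of each sum. Among those 15, C1qa, C1qb and C1qc together gave 12.9, 4.66, 7.44 and 9.93 CPM in liver libraries 1 to 4 and 1.05, 0.840, 3.19 and 3.48 CPM in duodenum libraries 1 to 4. In both tissues the libraries had the same order for C1q as for Apoe. Alb also had the order of Apoe in the liver, but in the duodenum it was highest in library 2 (0.516 CPM). Csf1r and Lyz2, of the same macrophage list, had another order in both tissues. In the liver, Csf1r was highest in library 2 (20.8 CPM) and Lyz2 in library 3 (480 CPM). Pancreas libraries had 2.46, 10.5, 1.96 and 3.82 CPM of C1q, and there library 2, with the most C1q, had no more Apoe than the rest. Clec4f and Vsig4, which define Kupffer cells, averaged 0.691 and 0.367 CPM in the liver. The 15 genes did not share 1 direction: 2 were called higher and 1 lower in the liver than in the duodenum. Adgre1 was the lower one, averaging 2.67 CPM against 12.9 in the duodenum (edgeR adjusted p = 0.000664). Csf1r was higher, at 18.4 against 5.26 CPM (edgeR adjusted p = 0.000213). Between liver and pancreas, 0 were called higher and 2 lower, Lyz2 and Timd4. Timd4 averaged 5.12 CPM in the liver and 20.95 in the pancreas (edgeR adjusted p = 0.0191). No gene of either list was at 0 in all libraries, and the part of these cells in the Apoe difference was not tested. In bulk RNA, fewer cells of a type and less RNA per cell cannot be told apart.

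**Figure D3:**
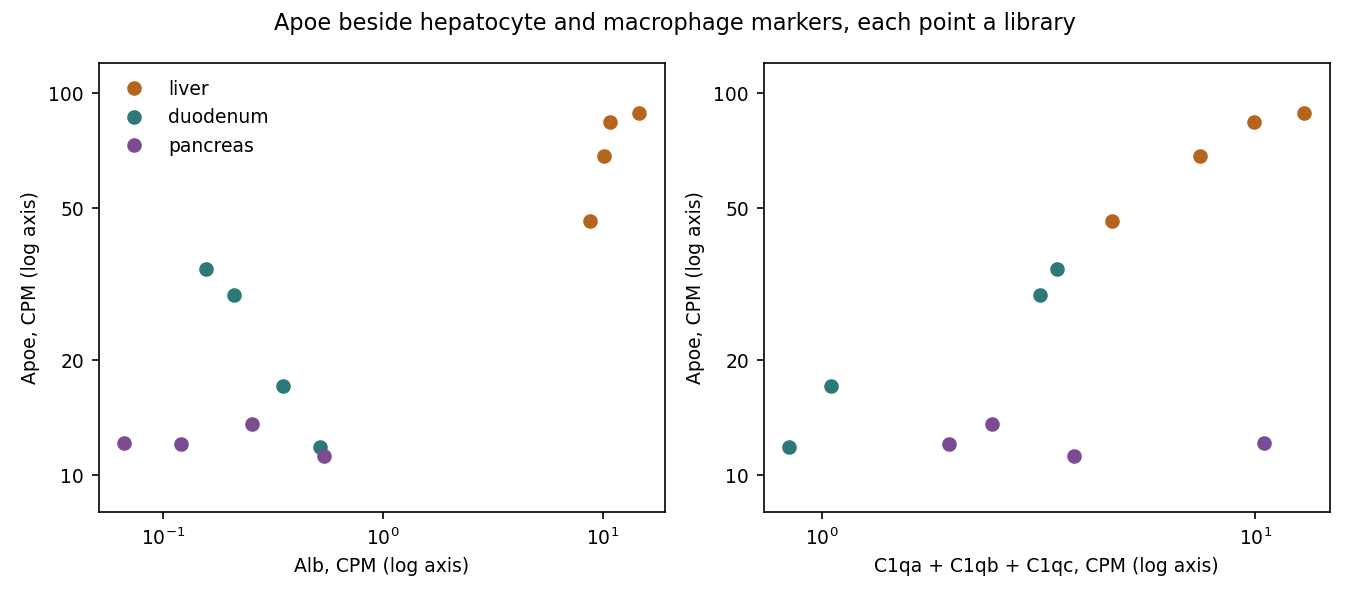
Apoe CPM plotted against Alb CPM (left) and against the summed CPM of C1qa, C1qb and C1qc (right), all on log axes, each point a library. Liver libraries have the highest Alb and Apoe, and pancreas library 2 has 10.5 CPM of C1q with 12.1 CPM of Apoe.

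MYLIP, also called IDOL, is a ubiquitin ligase through which LXR limits lipoprotein uptake. Mylip (ENSMUSG00000038175) measured 33.1, 38.0, 35.9 and 35.1 CPM in liver libraries, 19.6, 22.1, 28.8 and 25.0 CPM in pancreas libraries and 11.3, 9.80, 10.7 and 9.90 CPM in duodenum libraries. The 3 tissues did not overlap, and the order was liver, pancreas, duodenum. It was 3.41-fold higher in the liver than in the duodenum (log2 difference 1.77 ± 0.14, edgeR adjusted p = 3.83e-06) and 2.29-fold higher in the pancreas than in the duodenum (1.20 ± 0.14, edgeR adjusted p = 7.55e-05). Both stood in all 24 alternatives. Liver against pancreas missed the threshold at 0.57 ± 0.14 (edgeR adjusted p = 0.0726) and passed in 6 of 24 alternatives, among them the one without duodenum library 2 (adjusted p = 0.038).

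A list of 10 lipoprotein and lipid receptors had 1 gene called higher and 1 lower in the liver, and 3 higher and 1 lower in the pancreas, than in the duodenum. Over all genes tested the shares called were 7.32% and 7.7%, and 20.2% and 20.9% among those averaging at least 10 CPM. The 1 higher in the liver was Lrp1, a large receptor that takes up ApoE-bearing particles (log2 difference 1.51 ± 0.24, edgeR adjusted p = 0.00122). Higher in the pancreas were the fatty acid receptor Cd36 (0.84 ± 0.20, edgeR adjusted p = 0.0198), Lrp1 (0.82, adjusted p = 0.0492) and Olr1, and all 3 pancreas calls depended on single libraries. Cd36 lost its call without duodenum library 1 or 4 or pancreas library 2 or 3 (adjusted p = 0.053 to 0.0751), Lrp1 without any of 9 libraries (0.0524 to 0.177) and Olr1 without any of 11 (0.0515 to 0.132).

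Srebf1 encodes SREBP-1, the transcription factor that LXR raises to drive fatty acid synthesis. Srebf1 (ENSMUSG00000020538) measured 41.1, 28.1, 56.3 and 37.2 CPM in the duodenum, 25.1, 21.1, 38.1 and 23.1 CPM in the liver and 22.3, 28.8, 20.3 and 19.4 CPM in the pancreas. Duodenum values were the highest on average, but liver library 3 was above duodenum libraries 2 and 4. Pancreas library 2 was also above duodenum library 2. It was called lower in the pancreas than in the duodenum (log2 difference -0.84 ± 0.23, edgeR adjusted p = 0.0374), and did not pass between liver and duodenum (-0.60 ± 0.23, adjusted p = 0.151). The pancreas call was the least stable of the member calls: it was lost in 12 of 24 alternatives, including the removal of liver library 1 (adjusted p = 0.0503), duodenum library 1 (0.072), 3 (0.111) or 4 (0.0555), or pancreas library 1 (0.0893), 3 (0.0849) or 4 (0.11). The liver difference passed without liver library 3 (adjusted p = 0.0476) or without duodenum library 2 (0.0315). Rai1 overlaps Srebf1 in the RefSeq annotation.

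Scd1 and Scd2, whose products put the double bond into stearate to make oleate, went in opposite directions in the pancreas against the duodenum. Scd2 (ENSMUSG00000025203) measured 48.3, 38.2, 53.0 and 49.2 CPM in the duodenum, 31.8, 17.9, 33.8 and 26.3 CPM in the liver and 8.38, 26.1, 14.5 and 13.5 CPM in the pancreas. Every duodenum library was above every other library, and liver and pancreas overlapped. Scd2 was 3.02-fold lower in the pancreas than in the duodenum (log2 difference -1.60 ± 0.29, edgeR adjusted p = 0.00297). Liver against duodenum did not pass (-0.78 ± 0.28, edgeR adjusted p = 0.128), and neither did liver against pancreas (0.81 ± 0.29, adjusted p = 0.311), which passed once pancreas library 2 was left out (1.18, adjusted p = 0.0394).

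Scd1 (ENSMUSG00000037071), the form known from liver and fat, was far scarcer. It measured 2.82, 3.67, 2.46 and 2.75 CPM in the pancreas, 2.63, 0.728, 0.702 and 1.67 CPM in the liver and 1.11, 0.433, 1.02 and 0.338 CPM in the duodenum. All pancreas libraries exceeded all duodenum libraries, whereas liver library 1 reached into the pancreas range. Scd1 was 4.05-fold higher in the pancreas than in the duodenum (log2 difference 2.02 ± 0.46, edgeR adjusted p = 0.0138), and the call was lost without duodenum library 2 and pancreas library 1 together (1.79, adjusted p = 0.0703). Liver against duodenum did not pass (0.99 ± 0.45, edgeR adjusted p = 0.249). Adipocyte genes, a further source of Scd1, summed to 6.71 to 10.2 CPM in the pancreas, 6.76 to 8.35 in the liver and 3.70 to 6.24 in the duodenum, and their part in the difference was not tested.

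Within libraries, Scd2 exceeded Scd1 in TPM by 30.8 to 103 times in the duodenum, 8.61 to 34.2 times in the liver and 2.12 to 5.05 times in the pancreas. The Scd1 to Scd2 ratio was 14.8-fold higher in the pancreas than in the duodenum (log2 difference 3.88, exact permutation test, two-sided, p = 0.0286, adjusted p = 0.0643 over 9). It was 4.38-fold lower in the liver than in the pancreas (log2 difference -2.13, exact p = 0.0286, adjusted p = 0.0643). Neither passed after adjustment, and neither had overlapping libraries. The transcripts of the 2 genes share 5.18% of the 31-base words of Scd1 and 4.63% of those of Scd2, so that part of the sequence cannot assign a read to 1 gene. Scd3 and Scd4 are further mouse stearoyl-CoA desaturases. Scd3 was lower in the liver (log2 difference -2.51 ± 0.26, edgeR adjusted p = 3.24e-05) and in the pancreas (-1.56 ± 0.25, adjusted p = 0.00109) than in the duodenum. Scd4 was lower in the liver (-1.89 ± 0.36, edgeR adjusted p = 0.00429) and did not pass in the pancreas (-0.91 ± 0.35, adjusted p = 0.147).

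LPCAT3 puts polyunsaturated chains into membrane phospholipids and links LXR to membrane fluidity. Lpcat3 (ENSMUSG00000004270) measured 25.1, 18.6, 46.2 and 38.7 CPM in the duodenum, 20.2, 22.5, 19.8 and 16.1 CPM in the liver and 23.5, 23.0, 23.5 and 21.0 CPM in the pancreas. Duodenum libraries 1, 3 and 4 stood above every liver and pancreas library and duodenum library 2 fell within the liver range. No comparison passed: liver against duodenum gave -0.71 ± 0.23 (edgeR adjusted p = 0.0832) and pancreas against duodenum -0.50 ± 0.23 (adjusted p = 0.257). Without duodenum library 2 both passed, at -0.96 (adjusted p = 0.00404) and -0.75 (adjusted p = 0.0177). Emg1 overlaps Lpcat3 in the RefSeq annotation.

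**Figure D4:**
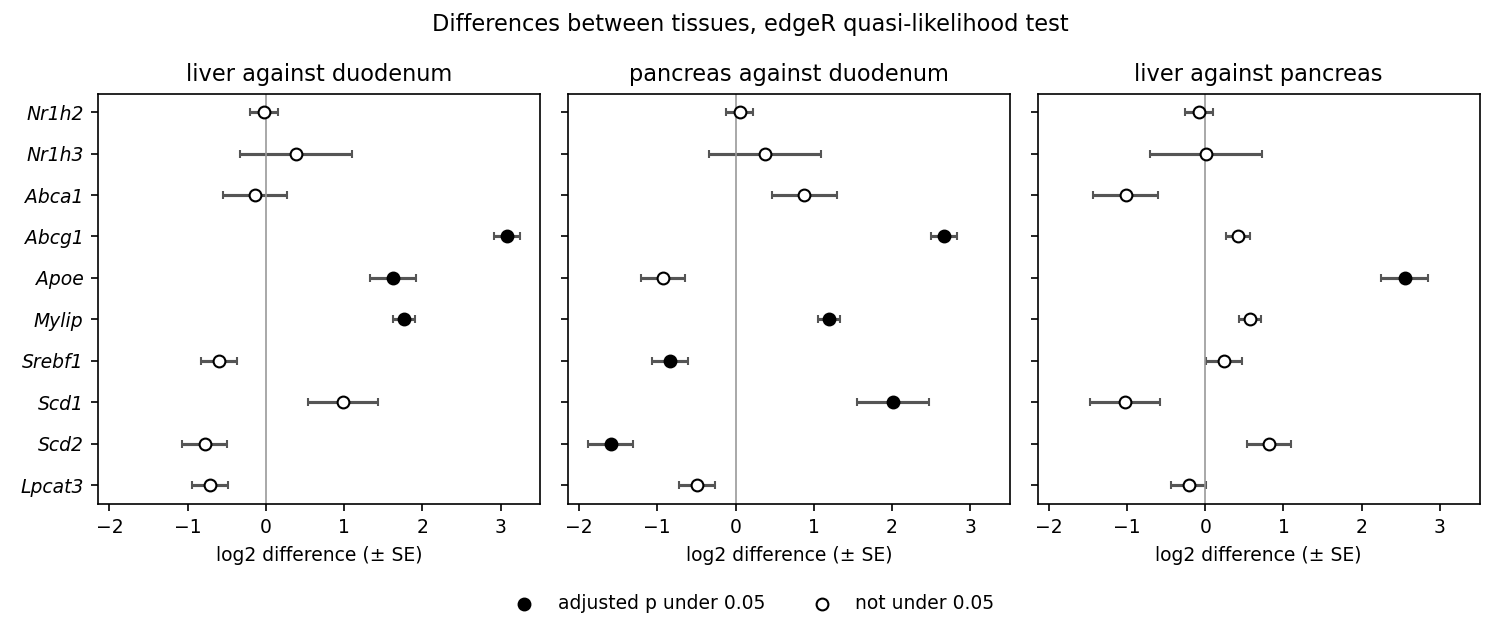
Log2 differences between tissues for the 10 genes, with SE bars, from the edgeR quasi-likelihood fit. Filled points have an adjusted p under 0.05. Abcg1 lies at 3.09 and 2.66 against the duodenum, and Apoe at 2.55 for liver against pancreas.

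All 10 genes passed the filter on low counts. In the liver against the duodenum, 3 of 10 were called, all higher (Abcg1, Apoe and Mylip), where 7.32% of the 44624 genes tested were called, 3.37% higher and 3.95% lower. In the pancreas against the duodenum, 5 of 10 were called, 3 higher (Abcg1, Mylip and Scd1) and 2 lower (Scd2 and Srebf1), beside 7.7% of all genes, 3.76% higher and 3.94% lower. Apoe alone was called between liver and pancreas, beside 1.11% of all genes, 0.426% higher in the liver and 0.681% lower. Among the 8638 genes with a mean of at least 10 CPM the called shares were larger, at 20.2%, 20.9% and 3.21% in the same order. The 2 comparisons against the duodenum share its 4 libraries. The median log2 difference of the 10 genes was 0.18, 0.21 and 0.13, and that of all genes 0.10, 0.09 and 0.01. Scaling by library totals moved the median of all genes to 0.25 in the liver against the duodenum, and RLE size factors moved it to 0.02, with 2642 higher and 1520 lower calls or 1078 and 1976 in place of 1502 and 1763. Between liver and pancreas library totals gave 428 higher and 392 lower calls in place of 190 and 304. The member calls against the duodenum were the same 3 and 5 in number under both scalings.

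Ranked by mean TPM, the 3 tissues began with different genes. Liver DCs had Apoe first at 77.3 ± 21.6 TPM (SD, n = 4), then Abcg1 at 68.3 ± 4.52 and Nr1h2 at 37.8 ± 4.92. The range of Apoe, from 51.1 to 98.0 TPM, took in that of Abcg1, so the first places did not separate, while both were above Nr1h2 in each library. Pancreas DCs had Abcg1 first at 47.5 ± 3.79, above Nr1h2 at 37.2 ± 4.34, and then Lpcat3 at 12.5 ± 1.24 and Apoe at 12.4 ± 1.92, which did not separate. Duodenum DCs began with Nr1h2 at 34.2 ± 6.71, followed by Apoe at 22.0 ± 9.25, Lpcat3 at 16.5 ± 6.00 and Srebf1 at 12.4 ± 3.34, neighbours whose ranges overlapped, and Abcg1 was sixth at 7.16 ± 1.32. Scd2 at 8.32 ± 0.789 was next above Abcg1 there, and Mylip at 3.36 ± 0.235 next below. In every tissue Nr1h3, Scd1 and Abca1 took the last 3 places, all under 1 TPM on average.

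For 5 of the called genes, the 3 genes with the most similar profile over the 12 libraries were taken from 7856 genes averaging 10 CPM or more, predicted genes, antigen receptor segments and pseudogenes left out by name, by the root-mean-square difference between centred log2 CPM profiles. For Abcg1 these were Csf2rb2 (0.24), Smagp (0.25) and Il18 (0.25), against a spread of 1.39 of Abcg1 about its own mean. Mylip was nearest to H2-Q6 (0.19), Clec1a (0.19) and Hfe (0.20), with a spread of 0.75. Scd2 was nearest to Galk1 (0.26), Hmgcs1 (0.28) and Acat2 (0.28), with a spread of 0.81. Srebf1 was nearest to Mrpl16 (0.18), Idh3a (0.19) and Plpp1 (0.19), with a spread of 0.46. Apoe had no match as near: the closest was Sema4c (0.53 against a spread of 1.13).

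The partners and cofactors of LXR formed a list of 13 genes. In the liver 4 were higher than in the duodenum and none lower, with a list median of 0.19, and in the pancreas 3 were higher, with a median of 0.01. These counts stand beside 7.32% and 7.7% of all genes called, or 20.2% and 20.9% at 10 CPM or more. Without liver library 2 and pancreas libraries 3 and 4, which had the most plasma cell RNA outside the duodenum, 1 was called in each tissue. Ep300, an acetyltransferase coactivator, was at 81.6 ± 6.69 CPM in the liver, 56.7 ± 6.88 in the pancreas and 36.2 ± 4.93 in the duodenum, with log2 differences from the duodenum of 1.17 and 0.65 (edgeR adjusted p = 8.72e-05 and 0.00717). Ncoa5 was higher in the liver (0.65 ± 0.17, edgeR adjusted p = 0.0349) and lost the call without liver library 1, 2 or 4 or duodenum library 1, 3 or 4 (0.0575 to 0.113). Rxra encodes 1 of the retinoid X receptors that pair with LXR, and is named although below the 10 CPM set for naming. It was at 8.78 ± 1.34, 8.59 ± 1.18 and 5.45 ± 1.07 CPM, with log2 differences of 0.69 and 0.66 (edgeR adjusted p = 0.0395 and 0.0475). Each call was lost in 16 of 24 alternatives. Among them was the removal of any of 11 single libraries for the liver (0.0508 to 0.121) and of any of 10 for the pancreas (0.0599 to 0.151). No gene of the list was called between liver and pancreas by edgeR.

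A further 19 genes were listed as LXR targets from general knowledge, and their response to LXR in mouse DCs was not tested. Of these, 2 were higher and 2 lower in the liver than in the duodenum, and 0 were higher and 4 lower in the pancreas. Without the same 3 libraries, 2 were called in each tissue. Genes called made up 7.32% and 7.7% of all those tested, and 20.2% and 20.9% at 10 CPM or more. Smpdl3a, a phosphodiesterase of the sphingomyelinase family, was at 145 ± 35.3 CPM in the duodenum, 57.1 ± 4.28 in the liver and 57.0 ± 5.62 in the pancreas, lower by 1.34 in log2 in both (edgeR adjusted p = 0.000126 and 9.6e-05). Tgm2, a transglutaminase, was at 16.8 ± 6.04 CPM in the duodenum, 9.22 ± 2.23 in the liver and 0.799 ± 0.196 in the pancreas. It was 21.1-fold lower in the pancreas than in the duodenum (edgeR adjusted p = 5.63e-07) and 11.5-fold higher in the liver than in the pancreas (adjusted p = 1.03e-05). The lipoprotein gene Apoc1 and the macrophage-secreted Cd5l, named after their values were seen, were higher in the liver than in the duodenum by 4.77 and 2.89 in log2, at only 0.964 ± 0.439 and 1.10 ± 0.585 CPM in the liver, and the part of hepatocytes and Kupffer cells, known to make them, was not tested. Apoc1 and Tgm2 were the 2 genes of the list called between liver and pancreas, both higher in the liver. Fasn, whose promoter window is shown above, was at 56.3 ± 6.73 CPM in the duodenum, 44.2 ± 4.11 in the liver and 39.7 ± 4.19 in the pancreas, called lower in the pancreas (log2 difference -0.50 ± 0.13, edgeR adjusted p = 0.0305) but not without duodenum library 1, 3 or 4 or pancreas library 1 or 4 (0.0632 to 0.0908). Elovl5, an elongase, was the other gene called lower in both tissues, by 0.60 and 0.66 in log2, and its liver call was lost without liver library 2 or 4 or duodenum library 3 or 4 (0.0577 to 0.0775).

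**Figure D5:**
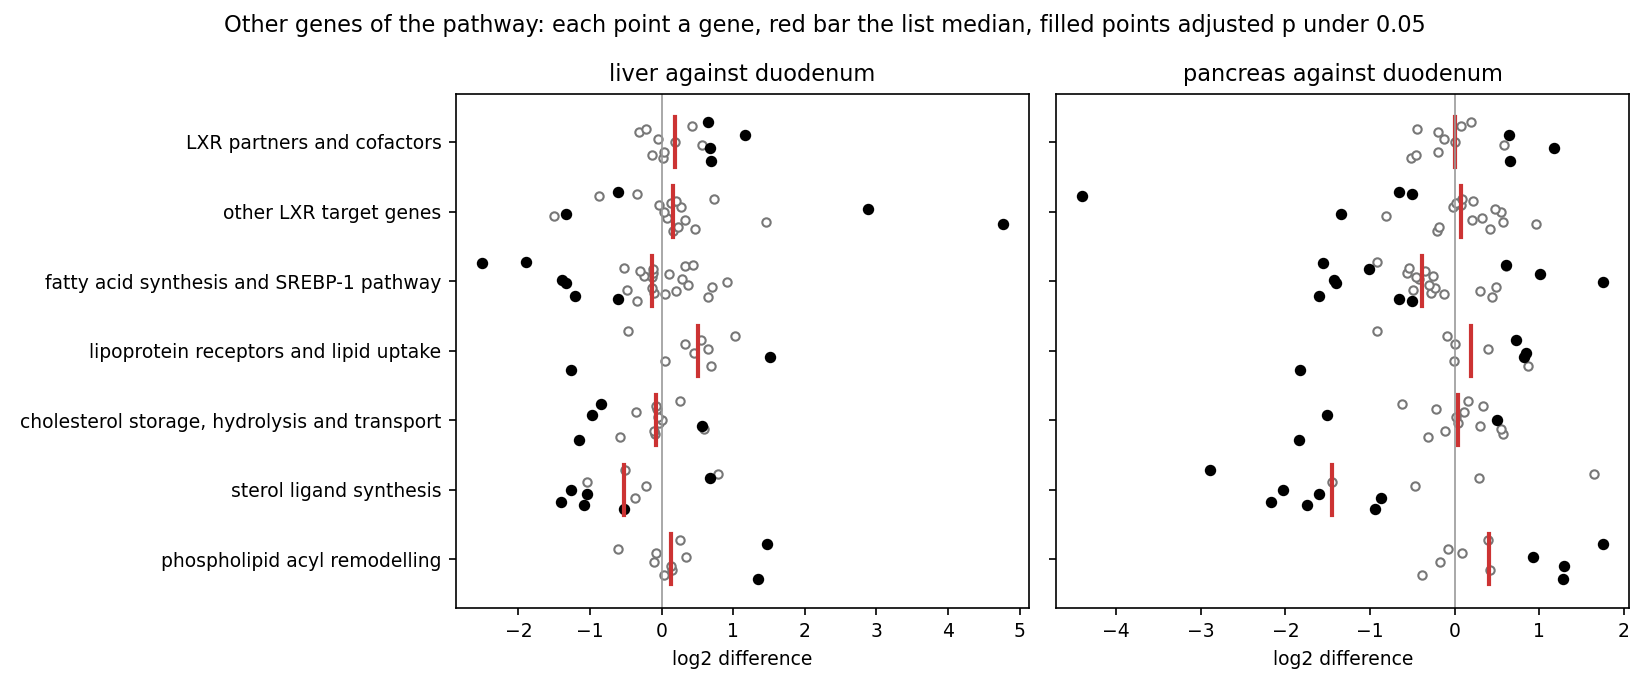
Log2 difference from the duodenum of each gene in 7 lists around the LXR pathway, for liver (left) and pancreas (right). Filled points have an edgeR adjusted p under 0.05, red bars mark list medians, and the list of sterol synthesis enzymes and sterol hydroxylases has medians of -0.52 and -1.45.

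The 26 genes of fatty acid synthesis and the SREBP-1 pathway had 0 higher and 6 lower in the liver and 3 higher and 7 lower in the pancreas, all against the duodenum, with medians of -0.13 and -0.38. The shares of all genes called were 7.32% and 7.7%, and 20.2% and 20.9% at 10 CPM or more. Without liver library 2 and pancreas libraries 3 and 4 the 10 pancreas calls became 4. Without duodenum library 2 and pancreas library 1 the 6 liver calls became 9. The 3 higher in the pancreas were Fads1, Dgat2 and Thrsp, of which Fads1 kept its call in all 24 alternatives. Dgat2 lost it without duodenum library 1 or 3 or pancreas library 3 (adjusted p = 0.0586 to 0.068), and Thrsp without duodenum library 1, 3 or 4 or pancreas library 1 or 4 (0.0604 to 0.0872). Elovl5 and Fasn stand in this list and in that of LXR targets. Fads2, the Δ6 desaturase, was at 16.9 ± 2.49 CPM in the duodenum, 6.41 ± 2.70 in the liver and 6.26 ± 0.891 in the pancreas (log2 differences -1.40 and -1.43, edgeR adjusted p = 0.00343 and 0.0026). Fads1, the next desaturase of the same route, went the other way: 33.7 ± 6.27 CPM in the pancreas against 9.97 ± 4.14 in the duodenum (1.76 ± 0.32, edgeR adjusted p = 0.00272), with 18.7 ± 6.51 CPM in the liver (0.91, adjusted p = 0.1). Insig1, which retains SREBP in the endoplasmic reticulum when sterols are plentiful, was at 115 ± 15.1 CPM in the duodenum, 49.8 ± 5.60 in the liver and 37.9 ± 14.7 in the pancreas, lower by 1.21 and 1.60 in log2 (edgeR adjusted p = 0.0024 and 0.00024).

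A list of 11 genes held enzymes of sterol synthesis, whose route also yields LXR ligands, and sterol hydroxylases. Of these, 5 were lower and 1 higher in the liver and 7 lower in the pancreas than in the duodenum. All genes tested had 7.32% and 7.7% called, and those at 10 CPM or more 20.2% and 20.9%. Sqle, Hmgcs1 and Cyp51 were among those lower in both. Lss and Cyp7b1, the latter a hydroxylase and not an enzyme of synthesis, were lower in the pancreas, calls lost in 11 and 10 alternatives. Without liver library 2 and pancreas libraries 3 and 4, 5 were called in the liver and 7 in the pancreas. Sqle (squalene epoxidase) was at 55.1 ± 12.9 CPM in the duodenum, 20.7 ± 2.56 in the liver and 12.2 ± 4.46 in the pancreas. Hmgcs1, an early enzyme of the route, was at 239 ± 33.6, 113 ± 5.72 and 71.3 ± 24.9 CPM in the same order, with log2 differences of -1.08 and -1.74 (edgeR adjusted p = 0.0037 and 7.2e-05). The gene called higher in the liver, Cyp27a1, makes 27-hydroxycholesterol, an LXR ligand, and was at 182 ± 14.5 CPM against 114 ± 27.9 in the duodenum (0.68 ± 0.17, edgeR adjusted p = 0.0206). Its call was lost without liver library 1, 2 or 3 or duodenum library 1 (0.0506 to 0.074), and that of Cyp51 in the liver without liver library 1, 2 or 4 (0.0515 to 0.0525).

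For storage and transport of cholesterol, 1 of 15 genes was higher and 3 were lower in the liver, and 1 higher and 2 lower in the pancreas, than in the duodenum. Among all genes 7.32% and 7.7% were called, and 20.2% and 20.9% at 10 CPM or more. Soat1, which esterifies cholesterol for storage, gave 501 ± 21.5 CPM in the duodenum, 226 ± 27.7 in the liver and 140 ± 34.0 in the pancreas, and no 2 tissues overlapped. Its log2 differences from the duodenum were -1.15 ± 0.16 and -1.84 ± 0.16 (edgeR adjusted p = 0.000351 and 4.44e-06), and it was the 1 gene of this list called between liver and pancreas (0.69 ± 0.16, adjusted p = 0.0486, lost in 16 of 24 alternatives, any of 10 single libraries among them, at 0.059 to 0.154). Stard4, a sterol carrier, was 1.97-fold lower in the liver and 2.83-fold lower in the pancreas (edgeR adjusted p = 0.0204 and 0.00109), and its liver call was lost without liver library 1, 3 or 4 (0.05 to 0.0668). Gramd1b, also a sterol transporter, was the third gene lower in the liver, and Npc2 in the liver and Plin3 in the pancreas were the higher ones. Npc2 lost its call without duodenum library 1 or 4 (0.0558 to 0.0591) and Plin3 without any of 11 libraries (0.0535 to 0.153).

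In the list of 10 phospholipid remodelling genes, to which Lpcat3 is related by function, 2 were higher in the liver and 4 in the pancreas than in the duodenum, and none lower. Calls in either direction took in 7.32% and 7.7% of all genes, and 20.2% and 20.9% at 10 CPM or more. Lpcat1, which makes saturated phosphatidylcholine, was at 346 ± 33.1 CPM in the liver, 331 ± 50.1 in the pancreas and 136 ± 43.4 in the duodenum (log2 differences 1.35 ± 0.20 and 1.29 ± 0.20, edgeR adjusted p = 0.000812 and 0.00101). Mboat1 was higher in the pancreas than in the duodenum (1.29 ± 0.23, edgeR adjusted p = 0.00239) and lower in the liver than in the pancreas (-1.17 ± 0.23, adjusted p = 0.0206), the latter lost without liver library 1, 3 or 4 or pancreas library 2, 3 or 4 (0.0562 to 0.0822). The remaining calls were Pla2g15 in both tissues and Mboat7 in the pancreas. Pla2g15 lost its liver call without any of 7 libraries (0.0503 to 0.148) and its pancreas call without duodenum library 4 or pancreas library 1 (0.0517 to 0.0538), and Mboat7 without any of 9 (0.0512 to 0.123).

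Other cell types left RNA in these libraries in a tissue pattern. Acinar genes of the pancreas summed to 960 to 5855 CPM in pancreas libraries and to 3.30 to 18.9 CPM elsewhere. Plasma cell genes summed to 8471 to 12427 CPM in the duodenum, and outside it were highest in liver library 2 (730 CPM) and pancreas libraries 3 and 4 (1051 and 1108 CPM). A fit without those 3 libraries kept every duodenum library, and so did not test the part of plasma cell RNA there. It also had fewer liver and pancreas libraries. Without those 3 libraries, 3 of 10 members were called in the liver and 3 in the pancreas against the duodenum, since Scd2 (log2 difference -1.45, edgeR adjusted p = 0.0559) and Srebf1 (-0.67, adjusted p = 0.307) no longer passed. Abcg1, Mylip and Apoe passed as before. The part of acinar and plasma cell RNA in the other differences was not tested.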

How the data were processed

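Sorted DCs of liver, duodenum and pancreas gave 12 bulk libraries, 4 a tissue, grouped by title. Transcripts were quantified with kallisto on GRCm39, per the submitters' processing notes. The version, the annotation, the strand setting and the summing to genes were not given in the sources used here. A table of estimated counts and a table of TPM, each with 55401 genes, were deposited. Count over TPM split into a gene factor times a library factor (12632 genes, largest log2 deviation 1.1e-09), so the deposited counts carry 1 length per gene for all tissues. For testing, the authors' estimated counts were rounded to integers. edgeR 4.0.16 in R 4.3.3 kept 44624 genes with filterByExpr (minimum count 10), scaled them by TMM and fitted 1 robust quasi-likelihood model to all 12 libraries without a block. P-values were adjusted by Benjamini-Hochberg over all 44624 genes and called under 0.05. The SE of a log2 difference is its size over the square root of F.

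CPM values use TMM factors. Ratios between genes used deposited TPM, with exact permutation tests (scipy 1.17.1). Alternatives numbered 24, and included DESeq2 1.42.0, limma 3.58.1, other scalings and filters, and leaving out each library in turn. The members and lists were chosen with earlier results of these data known, and so were the libraries left out in groups. All 10 members are named. Of each other list the rule named up to 3 called genes with the largest log2 difference that averaged 10 CPM or more in 1 of the tissues compared. Lists for the intestinal epithelium, endothelium and stroma, and glia were summed too: 26.2 to 46.1, 15.8 to 24.6 and 3.22 to 5.60 CPM in the duodenum, 12.1 to 21.2, 17.0 to 22.8 and 3.06 to 4.25 CPM in the liver, and 42.8 to 52.3, 13.6 to 64.7 and 2.87 to 4.37 CPM in the pancreas. Promoter sequences are from RefSeq on GRCm38.p6, a build other than that of the counts, and were matched by symbol. No 2 libraries of a tissue were alike: chi-square per degree of freedom was 75 to 411 in 18 pairs. The pools are called biological replicates in the labels. Some genes that the rule names are not reported here, and counts of lists include them.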

Additional observations from a re-analysis of the deposited data

Results flagged for a closer look

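Nr1h2 in pancreas library 1, at 44.16 CPM, lay far below the other 3 pancreas libraries, which were between 63.0 and 65.5 CPM: its gap to the nearest was a larger part of the range than the 95% critical value of Dixon's test for 4 libraries. It was the only one of 30 groups of 4 values examined, and chance marks about 1 group in 20.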

How the results depend on the processing

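Among the members and the list genes that were followed through the alternatives, no log2 difference that passed the test changed sign in any of the 24. The calls of Abcg1 and Mylip against the duodenum and of Apoe in the liver against both tissues passed in all 24. Liver against pancreas was the comparison that moved most in proportion to its counts. Its genes called went from 494 to 820 with library totals, 1171 with DESeq2, 931 with a filter of 1 CPM in 4 libraries, 790 with limma on log2(TPM + 1), and 346 to 756 with 1 library left out. Its members called went from 1 to 3 with library totals, 2 with DESeq2, 2 with the 1 CPM filter, 3 and 2 with limma on log2(TPM + 1) and log2(TPM + 0.1), and 1 to 2 with 1 library left out. Liver against duodenum had 3265 genes and 3 members called, with 5133 and 5 by DESeq2, 5 members with the 1 CPM filter, 4921 and 6 without duodenum library 2 and pancreas library 1, and 3 to 5 members with 1 library left out. Pancreas against duodenum had 3437 genes and 5 members called, with 5074 and 6 by DESeq2 and 4 to 7 members with 1 library left out. Leaving out duodenum library 2 alone gave 4854 genes for the liver and 4752 for the pancreas, each against the duodenum. Without the 3 libraries with immunoglobulin RNA outside the duodenum, genes called were 2111, 1785 (from 3437 for pancreas against duodenum) and 189, and members called in the pancreas against the duodenum 3 (from 5); fewer libraries were then fitted. With a pseudocount of 1 added to TPM, 6 ratio comparisons passed (adjusted p = 0.0429 each, exact permutation test). The Scd1 to Scd2 log2 differences were then 0.80, 1.90 and -1.11, and the Abca1 to Abcg1 ones -3.10, -2.46 and -0.63, for liver and pancreas against duodenum and liver against pancreas; Scd1 and Abca1 lie below that pseudocount. With the replicate number as a block, genes called were 2931, 3125 and 436 and members called 3, 4 and 1, Srebf1 being lost (adjusted p = 0.0532). Same-numbered libraries did not deviate together (correlation of residuals -0.2 to 0.117, over 0.1 in 2 of 12 pairs), so the numbers were not taken as pairs. Nr1h3 did not reach the 1 CPM filter, which used library totals without TMM factors. Its estimated counts were 30.3 to 329 per library. The gene-level alternatives for list genes were added after seeing the data.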
